A study of Mus musculus with 12 samples.

Results

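Malat1, Neat1, Gm26917, Gm42418, Rn7sk, Rpph1, Rmrp and Terc are abundant nuclear or structural noncoding RNAs. These 8 genes were picked by name out of the 52636 genes in the count files because of their shares of library counts in these same tumors. The values below therefore describe them, and no member was tested in any comparison. All 8 passed the filter on low counts that left 17970 genes.

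The samples were 12 bulk tumors, 3 in each of 4 groups. P53ERTAM combo tumors carried a tamoxifen-inducible P53ERTAM construct and their hosts received ORIN1001, an inhibitor of the IRE1 RNase, at 150 mg/kg daily with docetaxel at 20 mg/kg weekly for 8 days. P53ERTAM vehicle tumors carried the same construct and received vehicle. EV combo tumors carried an empty vector and received the same drugs, and EV vehicle tumors carried the empty vector and received vehicle. All 12 were transplants of 1 mouse triple-negative tumor, 2153L GEM, grown in mammary fat pads; hosts were female BALB/c mice, and no age is given. Tamoxifen dosing per mouse, the promoter of the construct and whether replicates came from separate mice are not given either, so p-values below measure the spread between these samples only, which may be technical. Total RNA was depleted of ribosomal RNA with the Ribo-Zero kit and counted per gene.

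Malat1 and Neat1 are long RNA polymerase II transcripts that stay in the nucleus, Malat1 in nuclear speckles and Neat1 as the scaffold of paraspeckles. RNase P makes the 3′ ends of Malat1 and of the long form of Neat1. A U-rich and A-rich triple helix protects these ends in place of a poly(A) tail. Counts per gene do not separate the forms of Neat1. Rn7sk, Rpph1 and Rmrp are short products of RNA polymerase III. Rn7sk is the 7SK RNA that holds the elongation factor P-TEFb inactive, Rpph1 is the catalytic RNA of RNase P, which trims the 5′ ends of transfer RNAs, and Rmrp is the RNA of RNase MRP, which cuts pre-ribosomal RNA. Terc carries the template of telomerase. Gm26917 and Gm42418 are annotated as long noncoding RNA genes inside an interval of chromosome 17 that holds a copy of the ribosomal RNA precursor. Reads of the many genomic copies of that precursor cannot be told apart, and whether the reads counted here came from this interval was not tested. The part of ribosomal RNA depletion in the shares of Gm26917 and Gm42418 was not tested either.

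The members' own letters show how they relate. The first pair is shown because the genes neighbour each other in the chromosome 17 interval and the start of Gm42418 holds a ribosomal RNA run. The end of Gm26917, chr17:39846282-39846341 on the plus strand, lies 616 bases before the start of Gm42418, chr17:39846958-39847017 on the plus strand. Capitals in Gm42418 mark a run at bases 13 to 31 that is conserved in small-subunit ribosomal RNAs. All coordinates are on GRCm38 and all sequences are from GENCODE transcripts of that build.

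Gm26917: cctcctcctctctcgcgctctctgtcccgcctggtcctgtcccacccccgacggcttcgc
Gm42418: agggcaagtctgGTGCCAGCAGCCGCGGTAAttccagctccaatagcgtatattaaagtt

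The second pair shows the 3′ region of Malat1, bases 6598 to 6701 of the gene at chr19:5795972-5796075, and the last 120 bases of Neat1 at chr19:5824708-5824827, both on the minus strand. Capitals mark 3 runs, picked as the runs of at least 11 bases that the 3′ ends of both genes share. They come in the same order in both: TTTCTTTTCCTGA, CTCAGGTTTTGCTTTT and AAAAAGCAAAA. Of 52403 genes searched on the transcript strand, 21 held the first run, 2 the second and 364 the third. Only Malat1 and Neat1 held all 3. Both genes lie on chromosome 19, 22035 bases apart.

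Malat1: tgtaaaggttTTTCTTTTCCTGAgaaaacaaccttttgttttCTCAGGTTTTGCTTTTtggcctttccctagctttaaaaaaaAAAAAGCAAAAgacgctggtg
Neat1: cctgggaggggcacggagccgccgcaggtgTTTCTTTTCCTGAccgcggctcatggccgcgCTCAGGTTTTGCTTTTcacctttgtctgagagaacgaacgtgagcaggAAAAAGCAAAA

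The starts of the 4 short RNAs are shown, those of Rn7sk and Terc because each carries the part by which it is known. In the first part of Rn7sk, chr9:78175526-78175633, capitals mark the 3 GATC motifs, a motif that HEXIM proteins bind in this RNA. In the first 80 bases of Terc, chr3:96414780-96414859, capitals mark CCTAACCCT, the telomere repeat template. That run also occurs in transcripts of 548 genes, or 1.05% of those searched. The first 100 bases of Rpph1, chr14:50807668-50807767, and of Rmrp, chr4:43492959-43493058, come from related ribozymes and are shown unmarked. Over the full length of both genes, the longest shared run, CAGCGGGGC, has 9 bases and lies outside the Rmrp stretch shown. All 4 lie on the minus strand.

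Rn7sk: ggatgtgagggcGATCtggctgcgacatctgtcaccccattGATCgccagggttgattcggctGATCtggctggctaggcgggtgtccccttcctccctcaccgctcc
Terc: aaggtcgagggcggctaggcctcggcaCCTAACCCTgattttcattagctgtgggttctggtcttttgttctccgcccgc
Rpph1: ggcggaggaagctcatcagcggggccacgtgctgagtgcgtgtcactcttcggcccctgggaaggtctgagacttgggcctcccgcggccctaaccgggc
Rmrp: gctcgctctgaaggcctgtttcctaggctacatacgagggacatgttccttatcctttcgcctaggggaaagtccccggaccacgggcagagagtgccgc

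The libraries held 13484873 to 24424964 counts. Esr1 counts, to which the ERTAM domain can add, came to 38.3 to 41.0 CPM (counts scaled to library size) in P53ERTAM combo, 29.7 to 33.4 CPM in P53ERTAM vehicle, 7.97 to 11.6 CPM in EV combo and 4.99 to 12.1 CPM in EV vehicle tumors. The EV combo libraries stood apart in composition, with 80.9 to 81.7% of counts in protein-coding genes against 86.7 to 95.8% in the other 9. Mitochondrial genes took 0.703 to 0.957% of their counts against 1.43 to 2.16% in the other 9. P53ERTAM vehicle replicate 2, the library with the fewest counts, had 86.7% in protein-coding genes. Summed CPM of 6 fibroblast markers was 1068 to 1570 in P53ERTAM combo, 1143 to 2964 in P53ERTAM vehicle, 702 to 1435 in EV combo and 366 to 382 in EV vehicle tumors, and of 6 epithelial markers 1961 to 2402, 1436 to 1958, 1707 to 2183 and 2907 to 3564 in the same order. Macrophage markers summed to 852 to 1223, 360 to 416, 249 to 366 and 198 to 435 CPM in that order. Of these, 6 of 6 were called higher with combo in P53ERTAM tumors and 0 in EV tumors, against 3.30% and 18.8% of all genes. Erythroid markers summed to at most 16.5 CPM in any library. Of these, 4 of 4 tested were called lower with combo in P53ERTAM tumors, against 2.98% of all genes. No marker of the 11 lists was at 0 in all libraries. The part of composition and cell types in the values below was not tested. In bulk tumors, fewer cells of a type and less RNA per cell cannot be told apart.

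Together the 8 RNAs took 3.14 ± 0.192% of counts in P53ERTAM combo, 5.80 ± 2.72% in P53ERTAM vehicle, 14.8 ± 0.400% in EV combo and 2.64 ± 0.328% in EV vehicle tumors (SD, n = 3 each). The combo mean was 0.542 of the vehicle mean in P53ERTAM tumors and 5.63-fold the vehicle mean in EV tumors, with no overlap in either. Without Gm26917 and Gm42418, the other 6 took 2.58 ± 0.0398%, 4.25 ± 1.77%, 2.37 ± 0.229% and 2.27 ± 0.270% in the same order of groups, and the EV combo and EV vehicle tumors overlapped. Between EV combo and EV vehicle tumors, the difference in the sum therefore lay in Gm26917 and Gm42418, while the other 6 differed in opposite directions among themselves.

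**Figure D1:**
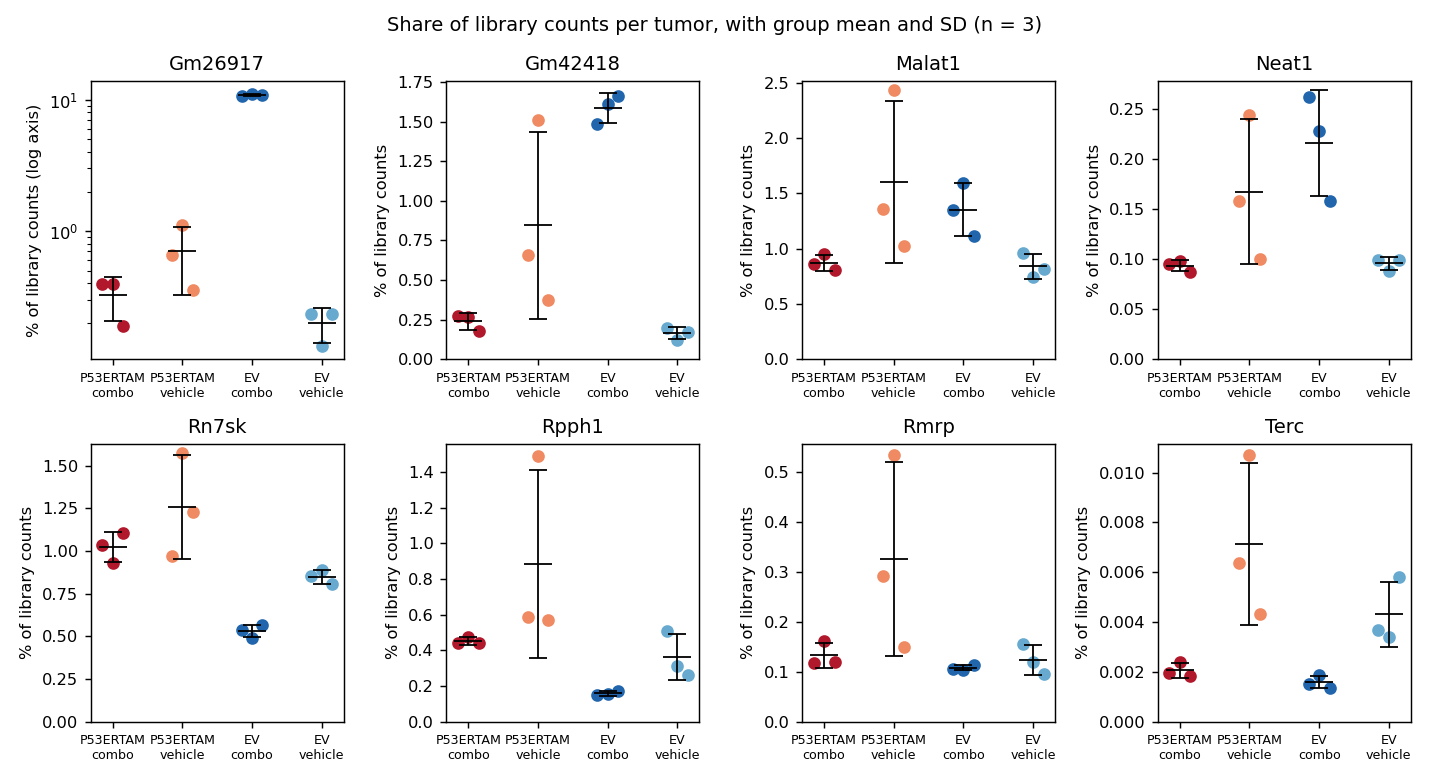
Share of library counts (percent, linear axes except the log axis for Gm26917) of each of the 8 RNAs in every tumor, by group; points are tumors and the bar and whiskers are the mean and SD (n = 3). Gm26917 sits at 10.7 to 11.1% in EV combo tumors and at 0.133 to 1.10% in the other 9, and P53ERTAM vehicle replicate 2 is the highest of its group in all 8 panels.

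Gm26917 covers the stretch of the interval upstream of the ribosomal RNA annotation. Its share was 0.398, 0.398 and 0.188% in the P53ERTAM combo tumors against 0.654, 1.10 and 0.357% in the P53ERTAM vehicle tumors. It was 10.7, 11.1 and 10.8% in the EV combo tumors against 0.234, 0.133 and 0.234% in the EV vehicle tumors. The 3 EV combo tumors stood far above all others, whereas P53ERTAM combo and vehicle tumors overlapped. The ratio of mean shares, combo over vehicle, was 0.465 in P53ERTAM tumors (log2 -1.10, SE 0.54) and 54.4 in EV tumors (log2 5.77, SE 0.24).

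Gm42418 starts within the small-subunit ribosomal RNA. Its share was 0.274, 0.265 and 0.175% in the P53ERTAM combo tumors against 0.656, 1.51 and 0.373% in the P53ERTAM vehicle tumors. It was 1.48, 1.61 and 1.67% in the EV combo tumors against 0.195, 0.123 and 0.172% in the EV vehicle tumors. Neither pair of groups overlapped, and the directions were opposite: the ratio of means was 0.281 in P53ERTAM tumors (log2 -1.83, SE 0.61) and 9.71 in EV tumors (log2 3.28, SE 0.20). Without P53ERTAM vehicle replicate 2, the P53ERTAM ratio was 0.462, still with no overlap.

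The 2 genes did not keep a fixed ratio. Per base of gene length, Gm26917 had 0.739 ± 0.129 times the counts of Gm42418 in P53ERTAM combo, 0.492 ± 0.0789 in P53ERTAM vehicle, 3.78 ± 0.191 in EV combo and 0.667 ± 0.0763 in EV vehicle tumors (SD, n = 3 each). In the 3 EV combo tumors this ratio was 3.58 to 3.96, above the 0.402 to 0.827 of the other 9. Gm26917 counts per base thus exceeded those of Gm42418 in the EV combo tumors and were below them in the other 9.

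Both lie on the plus strand, and 2 annotated genes lie on the minus strand of the same interval. CT010467.1, of the ribosomal RNA class, spans Gm42418 from end to end, yet it had 151 to 4273 counts per library, and Gm42418 had 68.6 to 376 times as many. AY036118, which lies within CT010467.1, had 0 counts in all 12 libraries. The library kit keeps strand, and the setting used in counting is not given in the sources used here. Gm42418 lies wholly inside CT010467.1 and still kept 28468 to 293233 counts, so reads of these 2 genes were told apart by strand. AY036118 shares its strand with CT010467.1, so its reads overlap both genes and could have been assigned to CT010467.1 or dropped. Its 0 counts therefore do not show that it was absent.

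**Figure D2:**
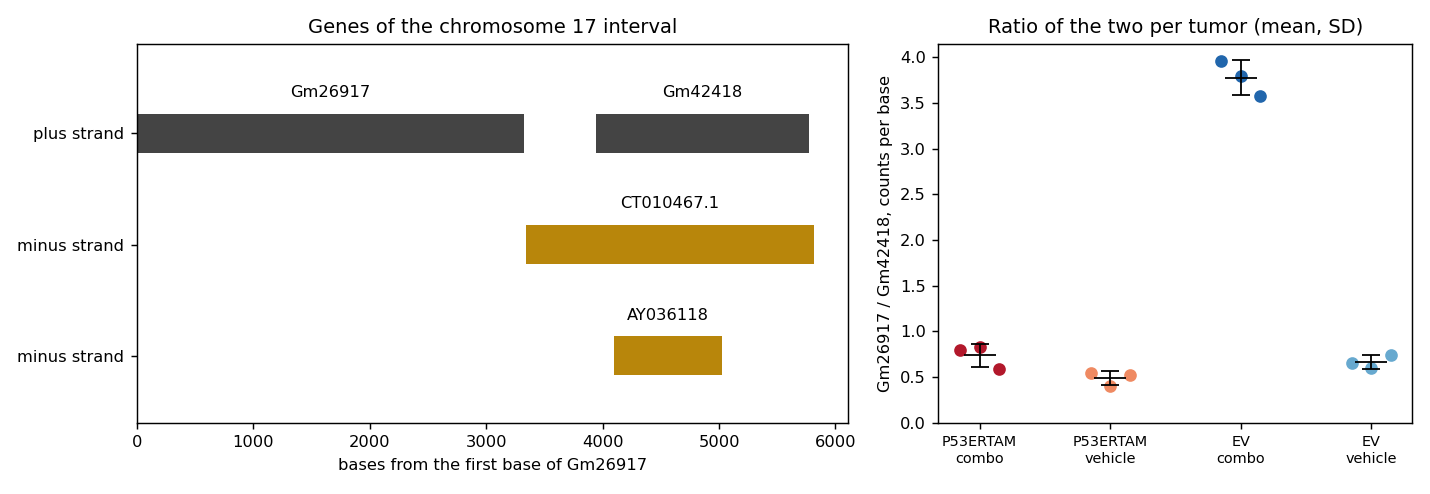
Left, the 4 annotated genes of the chromosome 17 interval drawn to scale as bases from the first base of Gm26917, by strand. Right, the ratio of Gm26917 to Gm42418 counts per base in each tumor with group mean and SD (n = 3); EV combo tumors lie at 3.58 to 3.96 and the other 9 at 0.402 to 0.827.

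RNA polymerase I makes the ribosomal precursor, and a list of 22 genes of that polymerase and of early precursor processing was tested. Combo against vehicle gave 0 higher and 1 lower in P53ERTAM tumors, and 4 higher and 5 lower in EV tumors (edgeR quasi-likelihood test, Benjamini-Hochberg over 17970 genes). Over all genes tested, 3.30% were called higher and 2.98% lower in P53ERTAM tumors, and 18.8% higher and 21.1% lower in EV tumors. P53ERTAM against EV gave 1 higher and 6 lower under combo, and 2 higher and 11 lower under vehicle. All genes gave 22.1% higher and 22.0% lower under combo, and 17.9% and 19.8% under vehicle. Taf1d, a subunit of the polymerase I selectivity factor SL1, was 0.73 higher on the log2 scale with combo in EV tumors (SE 0.12, adjusted p = 0.000652). The nucleolar chaperone Npm1 was lower there (log2 -0.79, SE 0.13, adjusted p = 0.000579).

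Malat1 was the most abundant of the pair of long nuclear RNAs. Its share was 0.857, 0.951 and 0.804% in the P53ERTAM combo tumors against 1.36, 2.43 and 1.02% in the P53ERTAM vehicle tumors. It was 1.35, 1.60 and 1.11% in the EV combo tumors against 0.964, 0.739 and 0.817% in the EV vehicle tumors. Combo tumors were all below vehicle tumors in P53ERTAM and all above them in EV. Combo over vehicle, the ratio of means was 0.542 in P53ERTAM tumors (log2 -0.88, SE 0.39), or 0.730 without P53ERTAM vehicle replicate 2, and 1.61 in EV tumors (log2 0.69, SE 0.19).

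Neat1 followed the same pattern at a lower level. Its share was 0.0945, 0.0981 and 0.0872% in the P53ERTAM combo tumors against 0.158, 0.244 and 0.0999% in the P53ERTAM vehicle tumors. It was 0.262, 0.228 and 0.158% in the EV combo tumors against 0.0991, 0.0882 and 0.0994% in the EV vehicle tumors. The groups did not overlap in either vector, although P53ERTAM vehicle replicate 3 was close to P53ERTAM combo replicate 2. Mean shares had a ratio of 0.558 in P53ERTAM tumors (log2 -0.84, SE 0.36) and 2.26 in EV tumors (log2 1.18, SE 0.21).

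Per base, Malat1 had 27.7 ± 0.965 times the counts of Neat1 in P53ERTAM combo, 28.6 ± 2.60 in P53ERTAM vehicle, 19.04 ± 3.20 in EV combo and 26.1 ± 2.46 in EV vehicle tumors (SD, n = 3 each). The EV combo ratios, 15.3 to 20.9, were below the 24.5 to 28.9 of the EV vehicle tumors. The P53ERTAM ranges overlapped, at 27.0 to 28.8 under combo and 25.6 to 30.5 under vehicle.

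Genes of the bodies these RNAs occupy were tested from lists. Of 13 paraspeckle proteins, combo against vehicle gave 0 higher and 0 lower in P53ERTAM tumors, and 5 higher and 3 lower in EV tumors. For combo, all genes gave 3.30% higher and 2.98% lower in P53ERTAM tumors, and 18.8% and 21.1% in EV tumors. By comparison of vectors, 1 was higher and 10 lower in P53ERTAM than in EV under combo, and 1 higher and 5 lower under vehicle. All genes gave 22.1% higher and 22.0% lower under combo, and 17.9% higher and 19.8% lower under vehicle. Nono, which Neat1 recruits into paraspeckles, was lower in P53ERTAM under combo (log2 -1.07, SE 0.12, adjusted p = 2.19e-05) and under vehicle (log2 -1.22, SE 0.12, adjusted p = 2.66e-05; edgeR). Pspc1, another core paraspeckle protein, was higher with combo in EV tumors (log2 0.79, SE 0.14, adjusted p = 0.000913).

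Of 12 nuclear speckle proteins, combo gave 0 higher and 0 lower in P53ERTAM tumors, and 2 higher and 1 lower in EV tumors. The 2 were the scaffold genes Son (log2 1.17, SE 0.17, adjusted p = 0.000321) and Srrm2 (log2 0.91, SE 0.10, adjusted p = 0.000102; edgeR). Among all genes tested, 3.30% were higher and 2.98% lower in P53ERTAM tumors, and 18.8% and 21.1% in EV tumors. Between vectors, 0 were higher and 7 lower in P53ERTAM than in EV under combo, and 0 higher and 6 lower under vehicle. All genes gave 22.1% higher and 22.0% lower under combo, and 17.9% and 19.8% under vehicle.

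Other long nuclear noncoding RNA genes were read beside Malat1 and Neat1. Of 16 tested, combo gave 0 higher and 5 lower in P53ERTAM tumors, with a median log2 fold change of -0.46, against 0.00 over all genes, and no call was made without P53ERTAM combo replicate 1 or 3 or P53ERTAM vehicle replicate 1 or 2. In EV tumors it gave 12 higher and 2 lower, with a median of 1.17 against -0.07 over all genes. Calls over all genes were 3.30% higher and 2.98% lower in P53ERTAM tumors, and 18.8% and 21.1% in EV tumors. Xist, which silences an X chromosome, was lower with combo in P53ERTAM tumors (log2 -1.50, SE 0.35, adjusted p = 0.0319; edgeR) and higher in EV tumors (log2 3.35, SE 0.38, adjusted p = 0.00015). The P53ERTAM call was also lost with no filter on low counts. Airn, an imprinted antisense RNA, was higher in EV tumors (log2 2.99, SE 0.29, adjusted p = 4.41e-05), and Tug1 was lower (log2 -0.53, SE 0.11, adjusted p = 0.00239).

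Rn7sk had the highest mean level per length of all genes, at 88410 TPM (counts scaled to gene length and library size) over the 12 libraries. Its share was 1.03, 0.932 and 1.11% in the P53ERTAM combo tumors against 0.969, 1.58 and 1.23% in the P53ERTAM vehicle tumors. It was 0.538, 0.492 and 0.566% in the EV combo tumors against 0.853, 0.888 and 0.806% in the EV vehicle tumors. The 3 EV combo tumors were the lowest of all 12, and P53ERTAM combo and vehicle tumors overlapped. Mean shares had a ratio of 0.814 in P53ERTAM tumors (log2 -0.30, SE 0.21) and 0.627 in EV tumors (log2 -0.67, SE 0.07).

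The EV difference depended on the total. It was -0.67 with TMM library sizes too. With Gm26917 and Gm42418 taken out of the total, the log2 ratio of Rn7sk was -0.49 in EV tumors, and per protein-coding count it was -0.44, with no overlap in either.

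Of 7 genes of the 7SK complex and P-TEFb, combo gave 0 higher and 0 lower in P53ERTAM tumors, and 1 higher and 1 lower in EV tumors. All genes gave 3.30% higher and 2.98% lower in P53ERTAM tumors, and 18.8% and 21.1% in EV tumors. Ccnt2, a cyclin of P-TEFb, was higher in EV tumors (log2 0.70, SE 0.13, adjusted p = 0.00119). Hexim1, the inhibitor that acts through 7SK, was lower there (log2 -0.42, SE 0.12, adjusted p = 0.0137; edgeR). That Hexim1 call was made under 16 of 19 alternatives.

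Rpph1 had a mean of 44950 TPM over the 12 libraries, and was next to Rn7sk in all groups but EV combo. Its share was 0.441, 0.476 and 0.441% in the P53ERTAM combo tumors against 0.588, 1.49 and 0.572% in the P53ERTAM vehicle tumors. It was 0.148, 0.155 and 0.172% in the EV combo tumors against 0.507, 0.312 and 0.263% in the EV vehicle tumors. Combo tumors were below vehicle tumors in both vectors, with no overlap. Combo over vehicle, the ratio of means was 0.512 in P53ERTAM tumors (log2 -0.96, SE 0.50) and 0.439 in EV tumors (log2 -1.19, SE 0.30). P53ERTAM vehicle replicate 2 carried much of the P53ERTAM value, which was 0.780 without it.

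Rmrp was the member whose share moved least with combo in EV tumors. Its share was 0.118, 0.162 and 0.120% in the P53ERTAM combo tumors against 0.292, 0.534 and 0.150% in the P53ERTAM vehicle tumors. It was 0.106, 0.104 and 0.114% in the EV combo tumors against 0.155, 0.121 and 0.0952% in the EV vehicle tumors. Both pairs of groups overlapped. The ratio of means was 0.410 in P53ERTAM tumors (log2 -1.29, SE 0.52) and 0.872 in EV tumors (log2 -0.20, SE 0.21), and the EV value changed sign to 0.03 per protein-coding count.

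The 2 related ribozymes thus parted in EV tumors. Per base, Rpph1 had 2.93 ± 0.379 times the counts of Rmrp in P53ERTAM combo, 2.44 ± 0.765 in P53ERTAM vehicle, 1.25 ± 0.0484 in EV combo and 2.44 ± 0.298 in EV vehicle tumors (SD, n = 3 each). The EV combo range of 1.19 to 1.29 lay below all other tumors. This ratio is free of the library total.

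RNase P and RNase MRP share most of their proteins. Of 10 tested, combo gave 0 higher and 0 lower in P53ERTAM tumors, and 1 higher and 5 lower in EV tumors. Shares over all genes were 3.30% higher and 2.98% lower in P53ERTAM tumors, and 18.8% and 21.1% in EV tumors. Rpp30 was lower in EV tumors (log2 -0.91, SE 0.22, adjusted p = 0.00588), as was Pop5 (log2 -0.70, SE 0.15, adjusted p = 0.00318). Pop1, the largest protein of both enzymes, was higher (log2 0.58, SE 0.16, adjusted p = 0.0101; edgeR).

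Of 31 genes of RNA polymerase III and its factors, combo gave 0 higher and 3 lower in P53ERTAM tumors, and 6 higher and 8 lower in EV tumors. Over all genes, 3.30% were higher and 2.98% lower in P53ERTAM tumors, and 18.8% and 21.1% in EV tumors. Snapc4, a subunit of the SNAPc factor that starts Rn7sk, Rpph1 and Rmrp transcription, was 1.99 higher on the log2 scale with combo in EV tumors (SE 0.15, adjusted p = 1.55e-05). Maf1, the repressor of the polymerase, was lower there (log2 -0.46, SE 0.12, adjusted p = 0.01; edgeR).

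Terc was the rarest member, with 240 to 1441 counts per library. Its share was 0.00195, 0.0024 and 0.00183% in the P53ERTAM combo tumors against 0.00636, 0.0107 and 0.00434% in the P53ERTAM vehicle tumors. It was 0.00153, 0.00186 and 0.00136% in the EV combo tumors against 0.00369, 0.00342 and 0.00581% in the EV vehicle tumors. Combo tumors were below vehicle tumors in both vectors, with no overlap. The ratio of means was 0.289 in P53ERTAM tumors (log2 -1.79, SE 0.40), or 0.385 without P53ERTAM vehicle replicate 2, and 0.368 in EV tumors (log2 -1.44, SE 0.29).

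The 95% Wilson half-width of a single library's share reached 12.7% of its value for Terc and 1.60% for the other 7. These intervals cover counting error only, and low counts were more often even than odd, so fragments may have been counted by both mates.

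Tert, the catalytic protein that works with Terc, differed from it in EV tumors. It was lower with combo in P53ERTAM tumors (log2 -1.12, SE 0.21, adjusted p = 0.0151; edgeR) and higher with combo in EV tumors (log2 1.14, SE 0.21, adjusted p = 0.00138). The P53ERTAM call was not made without P53ERTAM combo replicate 1 or 3 or P53ERTAM vehicle replicate 1 or 2. Of the 9 telomerase proteins, combo gave 0 higher and 1 lower in P53ERTAM tumors, and 2 higher and 5 lower in EV tumors. Over all genes, 3.30% were higher and 2.98% lower in P53ERTAM tumors, and 18.8% and 21.1% in EV tumors. Nhp2, a protein of the H/ACA core that binds Terc, was lower in EV tumors (log2 -0.82, SE 0.13, adjusted p = 0.000623).

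**Figure D3:**
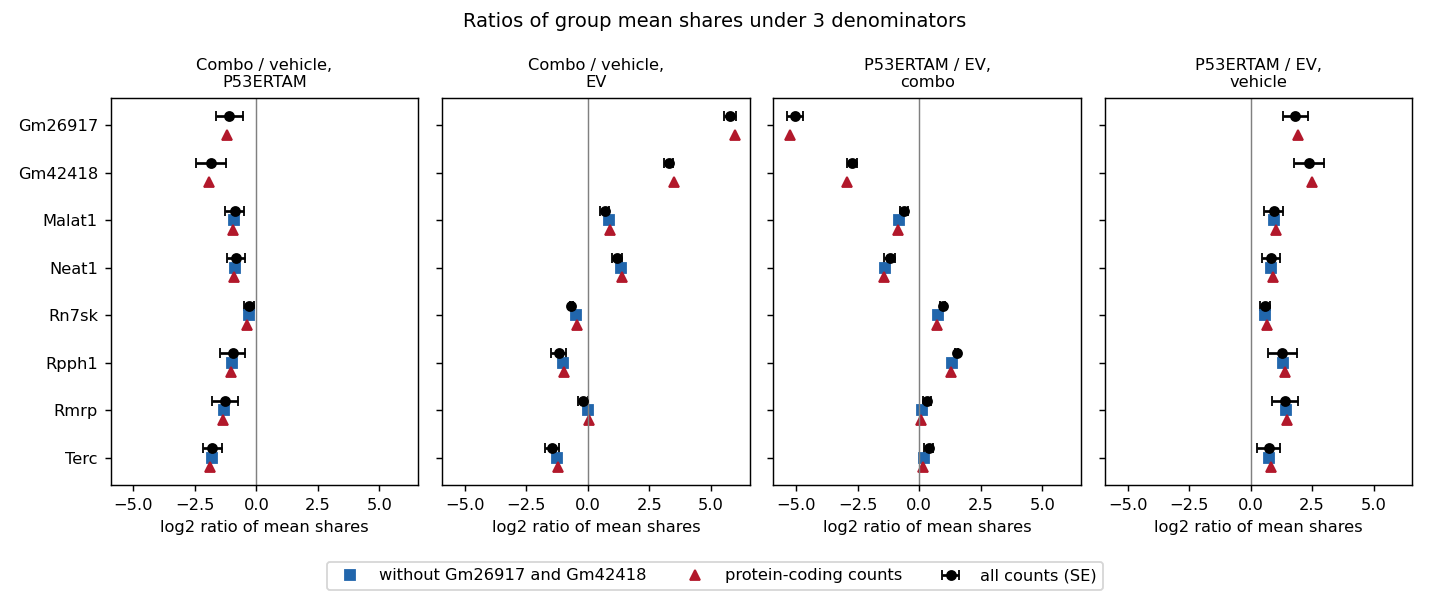
Log2 ratio of group mean shares of each RNA in 4 comparisons, over all counts (black, with SE), over counts without Gm26917 and Gm42418 (blue; not drawn for those 2) and over protein-coding counts (red). Gm26917 reaches 5.77 for combo over vehicle in EV tumors; all 8 values lie below 0 in P53ERTAM tumors and all 8 lie above 0 for P53ERTAM over EV under vehicle.

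Over the 8 members, combo shares were higher than vehicle shares with no overlap for 0 and lower for 5 in P53ERTAM tumors, where 20.4% and 12.9% of all genes were so. In EV tumors 4 were higher and 3 lower, where 23.6% and 26.6% of all genes were. The 4 were Gm26917, Gm42418, Malat1 and Neat1, and the 3 were Rn7sk, Rpph1 and Terc. Since these shares chose the members, nothing was read from the counts. The combo effects in the 2 vectors share no tumor.

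The difference between vectors in the log2 combo ratio, P53ERTAM minus EV, was -6.87 for Gm26917 (SE 0.59), -5.11 for Gm42418 (SE 0.64), -2.02 for Neat1 (SE 0.42) and -1.57 for Malat1 (SE 0.43). It was smaller for the RNA polymerase III products and Terc, at 0.38 for Rn7sk (SE 0.22), 0.22 for Rpph1 (SE 0.58), -1.09 for Rmrp (SE 0.56) and -0.35 for Terc (SE 0.49).

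P53ERTAM against EV tumors under vehicle gave higher mean shares for all 8. Non-overlap held for 6 of them, where 25.0% of all genes were higher and 20.1% lower without overlap. The ratio of means was 5.18 for Gm42418, 3.52 for Gm26917, 2.63 for Rmrp, 2.45 for Rpph1, 1.91 for Malat1, 1.75 for Neat1, 1.65 for Terc and 1.48 for Rn7sk, and Rmrp and Terc overlapped. Without P53ERTAM vehicle replicate 2 the ratio was 3.15 for Gm42418, 1.61 for Rpph1 and between 1.24 and 2.53 for the other 6, and the same 6 had no overlap. Neat1 also overlapped with TMM library sizes.

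Under combo the vectors split the members. Mean shares in P53ERTAM tumors were 0.0302 of those in EV tumors for Gm26917, 0.150 for Gm42418, 0.432 for Neat1 and 0.644 for Malat1, all without overlap. They were 2.86-fold higher for Rpph1, 1.93-fold for Rn7sk and 1.24-fold for Rmrp without overlap, and 1.30-fold for Terc with overlap. Of all genes, 37.9% were higher and 25.2% lower without overlap. Rmrp overlapped once Gm26917 and Gm42418 were taken out of the total. The comparisons share groups, so their values are not independent of each other.

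The order by mean level per length differed between groups. In P53ERTAM combo and in P53ERTAM vehicle tumors it was Rn7sk, Rpph1, Rmrp, Gm42418, Malat1, Gm26917, Terc and Neat1. In EV combo tumors it was Gm26917, Rn7sk, Gm42418, Rpph1, Rmrp, Malat1, Neat1 and Terc. In EV vehicle tumors it was Rn7sk, Rpph1, Rmrp, Malat1, Gm42418, Gm26917, Terc and Neat1. Gm26917 averaged 3188 ± 1194 TPM in P53ERTAM combo and 6107 ± 2679 TPM in P53ERTAM vehicle tumors, where Malat1 averaged 4027 ± 381.5 and 6648 ± 2322 TPM, so these neighbours differed by less than their spread. Terc averaged 157 ± 24.1 TPM in P53ERTAM combo, 488 ± 172 in P53ERTAM vehicle, 138 ± 22.9 in EV combo and 332 ± 108.2 in EV vehicle tumors. Neat1 averaged 145 ± 9.89, 234 ± 78.9, 382 ± 99.3 and 149 ± 11.03 TPM in the same order. These neighbours therefore changed places between groups, and the Terc and Neat1 means differed by less than their spread in P53ERTAM combo tumors. Gm26917 lay above Rn7sk in EV combo tumors, at 119900 ± 2824 TPM against 58930 ± 3662 TPM for Rn7sk.

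Other short structural RNA genes, such as Rn7s1 and Rn7s2 of the signal recognition particle, were counted beside the short members. Of 10 tested, P53ERTAM against EV gave 5 higher and 0 lower under combo, and 5 higher and 0 lower under vehicle. Over all genes, 22.1% were higher and 22.0% lower under combo, and 17.9% and 19.8% under vehicle. Rprl3, a gene related to the RNase P RNA, was higher under combo (log2 1.49, SE 0.31, adjusted p = 0.00222) and under vehicle (log2 1.57, SE 0.30, adjusted p = 0.00212; edgeR). Reads of Rprl3 and Rpph1 cannot be told apart with certainty where the copies agree. Vaultrc5, a vault RNA, was also higher by edgeR under combo (log2 2.10, SE 0.49, adjusted p = 0.00397) and under vehicle (log2 2.30, SE 0.46, adjusted p = 0.00189). Its level was low, at 5.45 ± 2.56 CPM in P53ERTAM combo and 13.98 ± 9.27 in P53ERTAM vehicle tumors (SD). It was 1.17 ± 0.130 CPM in EV combo and 2.67 ± 0.495 in EV vehicle tumors. Rprl3 also spread widely in P53ERTAM vehicle tumors, at 562.5 ± 332.9 CPM (SD).

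The nuclear exosome degrades noncoding RNAs, and 15 of its genes and adaptors were tested. P53ERTAM against EV gave 2 higher and 7 lower under combo, and 1 higher and 8 lower under vehicle. All genes gave 22.1% higher and 22.0% lower under combo, and 17.9% and 19.8% under vehicle. Mtrex, the exosome helicase, was lower under combo (log2 -0.99, SE 0.12, adjusted p = 5.38e-05) and under vehicle (log2 -0.78, SE 0.12, adjusted p = 0.000472; edgeR).

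**Figure D4:**
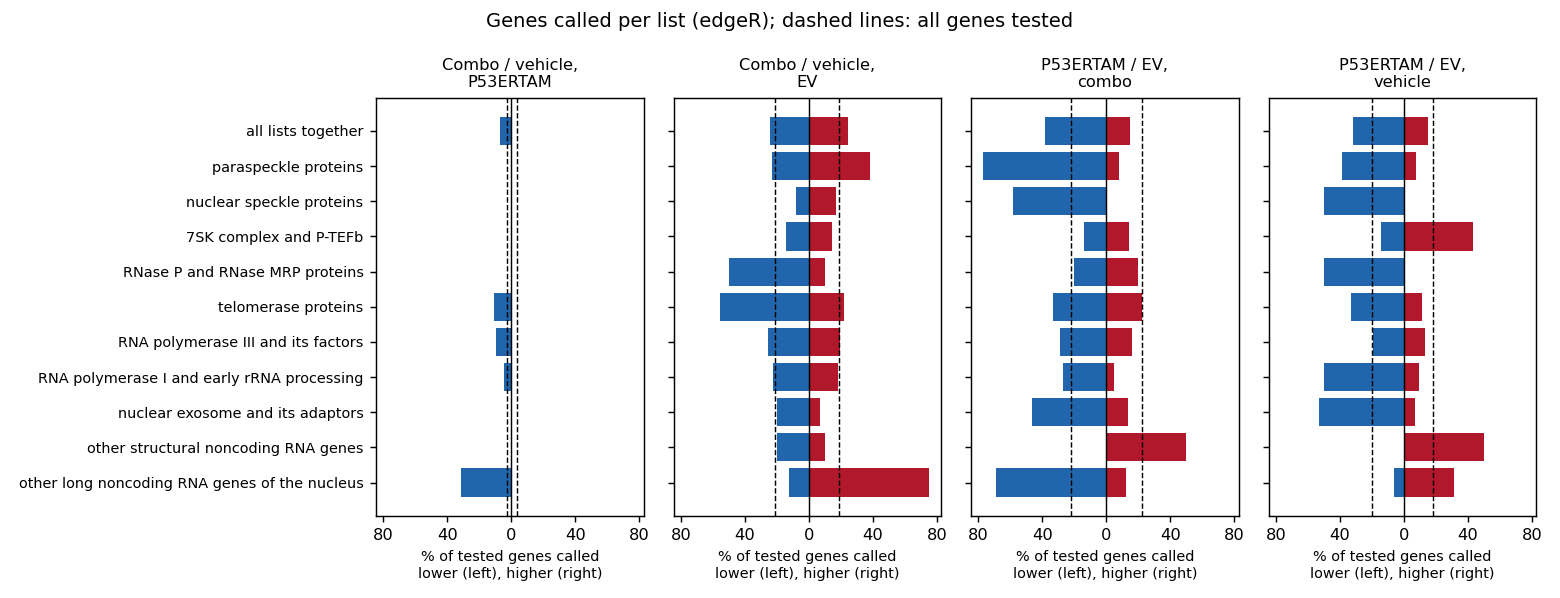
Percent of the tested genes of each list called higher (right, red) or lower (left, blue) in 4 comparisons by edgeR; dashed lines give the same over all 17970 genes. The list of other long nuclear noncoding RNA genes has 12 of 16 higher with combo in EV tumors and 11 of 16 lower in P53ERTAM than in EV tumors under combo.

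All 10 lists hold 145 tested genes. Combo against vehicle called 0 higher and 10 lower in P53ERTAM tumors, where 6.28% of all genes were called either way, and 35 higher and 35 lower in EV tumors, where 39.9% were. P53ERTAM against EV called 21 higher and 56 lower under combo, where 44.1% of all genes were called, and 22 higher and 46 lower under vehicle, where 37.8% were. The vector by treatment interaction called 20 higher and 32 lower, where 36.0% were. For combo in P53ERTAM tumors, 4431 of the 17970 genes reached an unadjusted edgeR p under 0.05, and DESeq2 called 2353. Of the 145 list genes, 8 higher and 32 lower reached that p, and DESeq2 called 21. In the lists with 0 calls there, these were 7 of 13 paraspeckle, 3 of 12 speckle, 1 of 7 7SK, 1 of 10 RNase P and MRP, 3 of 15 exosome and 4 of 10 other structural RNA genes, of which DESeq2 called 4, 0, 0, 0, 1 and 4. With scaling on protein-coding genes the share of higher calls over all genes was 41.5 in place of 52.5% for combo in P53ERTAM tumors, 60.5 in place of 47.2% for combo in EV tumors and 40.6 in place of 50.1% for the vectors under combo. The 10 calls in P53ERTAM tumors fell to 0 without P53ERTAM combo replicate 1 or 3 or P53ERTAM vehicle replicate 1 or 2, to 6 without P53ERTAM combo replicate 2 or EV combo replicate 1 or 2, and were 27 without P53ERTAM vehicle replicate 3. Where they were 0, 24 to 31 of the 145 had an unadjusted p under 0.05. Over all 18480 to 18628 genes tested in those fits, 3045 to 3618 did.

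For each member the 3 genes with the most similar log2 CPM over the 12 libraries were sought among 11677 genes. They are a description with no test, since libraries of a group share composition and depth. Gm26917 was most like Nrbp2 (r = 0.99, or 0.846 within groups), Kmt2d and Col7a1, and Gm42418 was most like Gm7265 (r = 0.989, or 0.912 within groups), Nktr and B130006D01Rik. Malat1 was most like Scarna2 (r = 0.93, or 0.872 within groups), Sept2 and Ppp1r12c, and Neat1 was most like Snrnp48 (r = 0.966, or 0.901 within groups), Zfp276 and Klc1. Rn7sk was most like Ubxn6 (r = 0.965, or 0.827 within groups) and Mgat4b. Rpph1 was most like Faap20 (r = 0.984, or 0.936 within groups), Rprl3 and Gm24105. Rmrp was most like mt-Rnr2 (r = 0.947, or 0.949 within groups), Ddx23 and Gm38394, and Terc was most like Khsrp (r = 0.951, or 0.681 within groups), Dmrta2 and 1300014J16Rik.

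Among the members themselves, Rn7sk and Rpph1 had r = 0.937 over the 12 libraries, or 0.661 within groups. Gm26917 and Gm42418 had r = 0.923, or 0.937 within groups, and Malat1 and Neat1 had r = 0.9, or 0.912 within groups. Rn7sk and Gm26917 had r = -0.703 over the 12 libraries and 0.132 within groups. By composition, the Gm26917 transcript is 69.1% G and C, Rpph1 and Terc 67.1%, Rmrp 64.2%, Gm42418 60.2%, Rn7sk 58%, Neat1 47.3% and Malat1 42.5%. The members higher with combo in EV tumors included the lowest and the highest of these. The part of G and C content in the shares was not tested.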

How the data were processed

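Bulk total RNA of 12 mouse tumors was sequenced after ribosomal RNA depletion in stranded libraries, per the labels' protocols. The submitters' processing notes list STAR, featureCounts, fastp and FastQC with the build GRCm38.p5 and give no version. The deposited files hold raw read counts for 52636 genes, as the layout in the file headers shows. Low counts were even in 66.3 to 71.7% of cases and high counts in 49.2 to 52.1%. Symbols came from a GENCODE annotation.

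A share is a gene's counts as a percent of the library total. Ratios of mean shares carry a delta-method SE. Genes of 10 related lists were tested with edgeR 4.0.16 (TMM, filterByExpr, robust quasi-likelihood F-test, 4 group means, 8 residual degrees of freedom) in R 4.3.3. DESeq2 1.42.0 was an alternative. Adjustment was by Benjamini-Hochberg across the 17970 genes, at a threshold of 0.05. The biological coefficient of variation was 0.221, and the test was checked on simulated data. TPM values were computed from the counts and gene lengths.

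Members and lists were chosen with earlier results of these data known. Named are all 8 members, per list and comparison up to 3 genes each way of smallest p among those called (some are shown), and the 3 genes most like each member, of which 1 is not reported here. Papd5 and Norad were found as Tent4b and 2900097C17Rik. Mpp6 was dropped, since that mouse symbol names another gene. Replicates differed by more than sampling noise (chi-square per gene 9.25 to 67.9).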

Additional observations from a re-analysis of the deposited data

Results flagged for a closer look

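Some effects of combo differed between the vectors, as P53ERTAM minus EV. For members these differences were not tested, because the same shares chose them: every combo tumor lay below every vehicle tumor in P53ERTAM and above every vehicle tumor in EV. The difference in log2 ratio was -1.57 for Malat1, -2.02 for Neat1, -1.62 for their sum, -5.11 for Gm42418 and -3.38 for the sum of all 8.

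For related genes the vector by treatment interaction was tested with edgeR over 17970 genes, of which 36.0% were called. The gene of smallest p per list was Snapc4 (log2 -2.07, adjusted p = 0.000161), Airn (-3.92, adjusted p = 0.000161), Tert (-2.25, adjusted p = 0.00042), Taf1d (-1.21, adjusted p = 0.00049), Srrm2 (-1.01, adjusted p = 0.000495), Zcchc7 (-1.69, adjusted p = 0.000715), Hnrnph3 (-1.31, adjusted p = 0.000829), Ccnt2 (-1.06, adjusted p = 0.00112), Rpp30 (1.32, adjusted p = 0.00643) and Rnu12 (-2.27, adjusted p = 0.0163). A negative value means that combo over vehicle was lower in P53ERTAM than in EV tumors.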

How the results depend on the processing

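The summed share of the 8 RNAs kept its direction in all 4 comparisons under the other totals and with each library left out. With 1 library left out, its log2 ratio was between -1.11 and -0.43 for combo in P53ERTAM tumors, between 2.43 and 2.60 for combo in EV tumors, between -2.27 and -2.19 for P53ERTAM against EV under combo and between 0.69 and 1.36 under vehicle. Per protein-coding count it was 2.72 for combo in EV tumors and -2.46 for the vectors under combo, where TMM library sizes gave -2.35. With Gm26917 and Gm42418 taken out of both sum and total, the other 6 gave 0.246 for combo in EV tumors and -0.0622 for the vectors under combo. Over all counts these 6 gave 0.0590 and 0.122, and per protein-coding count 0.29 and -0.101. The value for combo in EV tumors over all counts was -0.00597 without EV combo replicate 2. The direction of this sum was therefore not kept in either comparison. Of the single-member ratios, Rmrp with combo in EV tumors changed sign, and 11 of 88 values under other denominators and 1 of 192 with a library left out (Rpph1 with combo in P53ERTAM tumors, -0.36 without P53ERTAM vehicle replicate 2) moved by more than the spread. For sums of some members these were 12 of 36 and 0 of 72. Calls among the list genes with 1 library left out were 0 to 27 for combo in P53ERTAM tumors, 52 to 77 for combo in EV tumors, 59 to 83 and 46 to 67 for the vectors under combo and under vehicle, and 38 to 57 for the interaction. DESeq2 called 21 for combo in P53ERTAM tumors against 10 by edgeR, and a fit of the vehicle groups only called 39 between vectors against 68. Scaling on protein-coding genes gave 36.5 in place of 52.2% higher among interaction calls over all genes, and a median log2 change of all genes of -0.05 in place of 0.13 there, 0.06 in place of -0.07 for combo in EV tumors and -0.05 in place of 0.06 for the vectors under combo. For combo in P53ERTAM tumors, calls over all genes were 1129 by edgeR, 2353 by DESeq2, 1890 with those groups only and 77 to 2130 with 1 library left out (without P53ERTAM combo replicate 1 and without P53ERTAM vehicle replicate 3). Named genes lost their call in 79 of 1147 repeats under other settings and in 227 of 2028 with a library left out. The replicate numbers did not pair the samples (2 of 18 correlations of same-numbered deviations above 0.1, range -0.149 to 0.211), and with the replicate block the counts in that order of comparisons were 8, 69, 77, 62 and 46, against 10, 70, 77, 68 and 52 without it. The causes were not tested.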
